A study of Mus musculus with 44 samples.

Results

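The interferon response genes are 41 genes taken by symbol as 1 named list, out of 45882 genes in the expression tables of satellite glia and ganglia and 12170 in that of isolated neurons. All 41 are in the glia and ganglion tables and 37 are in the neuron table, where Ifnar2, Oas2, Mx1 and Parp14 have no line. The study sequenced total RNA of dorsal root ganglia, the clusters of sensory neurons beside the spinal cord, of C57BL/6 mice in 44 libraries. Satellite glial cells, which wrap the neuron bodies, were sorted by flow cytometry from dissociated and fixed L3 and L4 ganglia. Naive satellite glia (4 libraries) and naive whole ganglia, dissociated and fixed but not sorted (4 libraries), came from mice of 9 weeks. Operated mice were 9 to 11 weeks old. Their satellite glia were taken 3 or 14 days after full ligation of the sciatic nerve or after a sham operation (4 libraries in each of 4 groups). Neurons were isolated with magnetic beads from unfixed L3 to L5 ganglia 8 days after partial ligation or sham, from males and females (3 libraries in each of 4 groups). Another set of neurons came from the ligated and from the opposite side of mice with partial ligation at 8 days (4 libraries each), with no sex in the labels. The labels name no transgene or drug, and whether a library is 1 mouse or a pool is not given in the sources used here, so p-values measure the spread between libraries.

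Interferons are secreted proteins that alert cells to infection. Type I interferons bind a receptor made of Ifnar1 and Ifnar2, and kinases at that receptor switch on a complex that includes Stat2 and Irf9. The complex binds a DNA element, the interferon-stimulated response element (ISRE), and turns on genes whose products block steps of viral replication. Interferon gamma uses another receptor and acts through a different element (GAS). Many of these genes are also transcribed at a low level without infection.

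RefSeq promoter sequences of build GRCm38.p6 were found for 32 of the 41 genes. The 250 bases before each start site were searched on both strands for the ISRE core GAAANNGAAA (TTTCNNTTTC on the other strand, N being any base). The core was found in promoters of 13 of the 32 genes (40.6%), beside 3.46% of all 27025 genes with a promoter sequence. The GAS core TTCNNNGAA, which reads the same on both strands, was found for 8 of the 32 (25%), beside 8.13% of all genes. A match is a run of letters and not a measured binding site. The stretches below are shown because most of these genes carry the results that follow, and capitals mark the ISRE cores, 5′ to 3′ on the strand of the gene.

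Ifit1: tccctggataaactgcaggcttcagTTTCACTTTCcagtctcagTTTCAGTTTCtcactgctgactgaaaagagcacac
Ifit3: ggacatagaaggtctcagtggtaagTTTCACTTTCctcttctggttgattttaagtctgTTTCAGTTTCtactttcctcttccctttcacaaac
Isg15: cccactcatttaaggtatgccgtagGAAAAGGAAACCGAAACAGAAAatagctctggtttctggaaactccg
Bst2: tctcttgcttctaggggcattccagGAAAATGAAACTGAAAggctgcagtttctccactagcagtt
Gbp2: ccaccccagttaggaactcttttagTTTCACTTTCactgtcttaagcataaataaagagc
Igtp: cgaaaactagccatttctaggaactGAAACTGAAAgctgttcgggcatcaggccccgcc
Irgm1: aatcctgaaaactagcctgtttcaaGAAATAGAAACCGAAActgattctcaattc
Apobec3: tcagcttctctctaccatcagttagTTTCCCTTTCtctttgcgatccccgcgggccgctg

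The stretch of Ifit1 lies at chr19:34640760-34640838 on the plus strand and that of Ifit3 at chr19:34583348-34583441 on the plus strand. Isg15 has its stretch at chr4:156200850-156200921 on the minus strand, Bst2 at chr8:71537562-71537627 on the minus strand and Gbp2 at chr3:142620579-142620638 on the plus strand. Igtp follows at chr11:58199497-58199555 on the plus strand, Irgm1 at chr11:48871421-48871475 on the minus strand and Apobec3 at chr15:79892243-79892302 on the plus strand. Ifit1 and Ifit3 carry 2 separate cores each, Isg15 has 3 that overlap, Bst2 and Irgm1 have 2 that overlap, and Gbp2, Igtp and Apobec3 have 1. The other members with a core were Gbp3, Ifitm2, Oas1a, Rsad2 and Stat2.

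Values are FPKM (fragments scaled to transcript length and to the mapped fragments of the library), and the raw depth is unknown from them. Between 10225 and 13173 genes reached 1 FPKM in a library, and no libraries were identical. Satellite glia markers (9 genes) summed to 7690 to 17020 FPKM in sorted glia and 3722 to 5553 in whole ganglia. Neuron markers summed to 6105 to 8873 FPKM in isolated neurons and still to 98.7 to 693 in sorted glia. The tables of naive tissue, of glia after surgery and of neurons were scaled separately, so tests stay within a table. Differences are in log2(FPKM + 1), which understates changes of genes near 0, and orders by size hold on this scale. A gene is called where limma's Benjamini-Hochberg adjusted p over all genes tested is under 0.05. In bulk RNA, fewer cells of a type and less RNA per cell cannot be told apart.

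In naive mice most of these genes were higher in sorted satellite glia than in whole ganglia. Of 38 members with enough signal to test, 24 were called higher and 2 lower, while of all 12907 genes tested 44.9% were called, 16.9% higher and 27.9% lower. The members' median difference was 0.88, against -0.12 for all genes. Quantile normalization moved the median of all genes to 0.16 and that of the members to 1.14, with 28.7% of all genes called higher and 20.8% lower, and 29 members higher and 2 lower. For 22 members every glial library was above every ganglion library, which held for 16.7% of all genes tested. Oas1a, Oas2 and Mx1 were too low to test.

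The preparations differed in other cells as well. Macrophage markers (12 genes) summed to 6.60 to 12.6 FPKM in glia and 104 to 122 in ganglia, and 10 of 11 tested were called lower in glia. Endothelial markers (10 genes) summed to 114 to 242 FPKM in glia and 56.3 to 106 in ganglia, all 10 differences were positive, and 4 were called higher. Lymphocyte markers summed to at most 2.91 FPKM in glia, where 7 of 10 were listed at 0 in every library. The part of these cells in the member values was not tested.

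**Figure D1:**
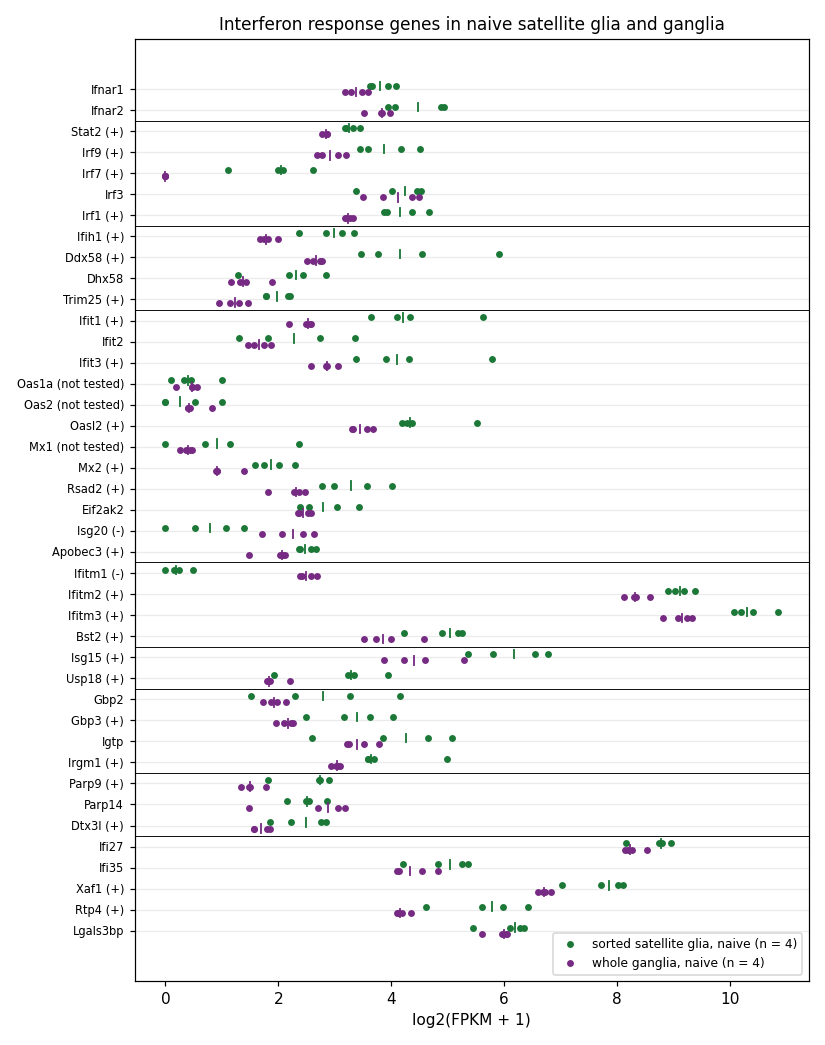
Each row is 1 interferon response gene and each point 1 library on a log2(FPKM + 1) axis, green for sorted naive satellite glia and purple for naive whole ganglia, with ticks at the medians (n = 4 each). (+) and (-) mark genes called higher or lower in glia and black lines part the roles; most green points lie to the right of the purple ones, and those of Ifitm1 and Isg20 to the left.

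Of the receptor chains neither was called. Ifnar1 had 11.6, 14.5, 15.9 and 11.4 FPKM in glial libraries 1 to 4 and 10.2, 8.08, 8.73 and 11.1 in ganglion libraries 1 to 4 (0.44 ± 0.16 SE, limma adjusted p = 0.0520). Every glial value of Ifnar1 was above every ganglion value, by a narrow margin. Ifnar2 had 14.4, 15.9, 28.6 and 29.8 in glia and 10.5, 13.1, 13.4 and 14.7 in ganglia (0.67 ± 0.26 SE, adjusted p = 0.0595). Both chains passed the threshold under 5 of 13 alternative settings, quantile normalization among them.

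Of the 5 transcription factors, 4 were called higher. Irf7, the induced factor that amplifies type I interferon production, was listed at 0 in all 4 ganglion libraries and at 1.15, 5.12, 3.26 and 2.98 FPKM in the glial ones. A listed 0 can be a failed estimate in such tables, so the differences of Irf7 printed below are not read as a fold. Irf7 is also 1 of the 22 members without overlap, and 23 members were called higher without it. Irf9, a DNA-binding part of the complex with Stat2, had 21.9, 11.0, 9.93 and 17.1 FPKM in glia and 5.41, 7.29, 5.84 and 8.22 in ganglia (1 ± 0.26 SE, adjusted p = 0.0122). Irf1, a factor that interferon gamma induces, had 13.7, 14.2, 24.4 and 19.7 against 8.18, 9.05, 8.63 and 8.06 (0.97 ± 0.19 SE, adjusted p = 0.00341). Stat2 had 8.05, 8.98, 9.95 and 8.20 against 5.87, 6.24, 6.24 and 6.19 (0.45 ± 0.12 SE, adjusted p = 0.0169), the smallest of the called differences. The groups of these 3 genes did not overlap. Irf3, which is present before infection and is activated by phosphorylation, had overlapping groups (0.04 ± 0.31 SE, adjusted p = 0.932).

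Among the sensors of viral RNA, Ddx58 (RIG-I), Ifih1 (MDA5) and Trim25, a ubiquitin ligase that acts on RIG-I, were called higher, and Dhx58 was not (0.74 ± 0.33 SE, adjusted p = 0.1). Ddx58 had 22.3, 10.1, 59.5 and 12.6 FPKM in glia and 4.68, 5.82, 5.09 and 5.69 in ganglia (1.77 ± 0.47 SE, adjusted p = 0.0149). Its glial libraries ranged widely while the ganglia lay close together, and the lowest glial value was above the highest ganglion value. Ifih1 (1.12) and Trim25 (0.77) also had no overlap.

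The antiviral effectors split into 6 higher, 1 lower and 2 not called of 9 tested. Ifit1, which binds viral RNA with an incomplete cap, had 16.2, 11.6, 48.4 and 19.1 FPKM in glia and 3.56, 4.95, 4.94 and 4.60 in ganglia (1.97 ± 0.38 SE, adjusted p = 0.00291), next to 1.95 for Irf7 on this scale. With a pseudocount of 0.1 the values were 2.16 for Ifit1 and 4.84 for Irf7. Its neighbour Ifit3 had 9.35, 18.8, 54.0 and 14.0 against 5.01, 7.33, 6.16 and 6.31 (1.5 ± 0.45 SE, adjusted p = 0.0247). Both were highest in glial library 3. Oasl2, Rsad2 (viperin), Mx2 and Apobec3 had differences of 1.12, 1.11, 0.88 and 0.56. Isg20, an RNA-degrading enzyme, went the other way, with 0, 0.431, 1.11 and 1.63 FPKM in glia and 4.40, 5.22, 2.29 and 3.20 in ganglia (-1.47 ± 0.33 SE, adjusted p = 0.00681).

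The membrane restriction factors included the highest levels per length. Ifitm3, which hinders virus entry, had 1074, 1364, 1850 and 1181 FPKM in glia and 539, 452, 608 and 645 in ganglia (1.26 ± 0.20 SE, adjusted p = 0.000997). Ifitm2 had 481 to 669.8 and 278 to 386 FPKM (0.79 ± 0.15 SE, adjusted p = 0.00291). Ifitm1, from the same gene cluster, was the opposite, with 0.174, 0, 0.407 and 0.105 in glia and 4.95, 4.35, 4.24 and 5.47 in ganglia (-2.30 ± 0.16 SE, adjusted p = 2.26e-05). Neutrophil markers, which summed to 555 to 626 FPKM in ganglia and at most 0.143 in glia, differed in the same direction as Ifitm1 and Isg20. So did neuron markers (2297 to 4227 FPKM in ganglia, 98.7 to 256 in glia) and erythrocyte markers (1352 to 3220 and at most 1.11). Macrophage markers did as well, while satellite glia and endothelial markers went the other way. Isg20 had 7.71 to 27.3 FPKM in sham neurons, in a table scaled separately. The part of these cells in those differences was not tested. Bst2 (tetherin) was called higher with overlapping groups (0.93 ± 0.29 SE, adjusted p = 0.0293).

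Isg15, a ubiquitin-like modifier, had 40.2, 108, 92.5 and 54.8 FPKM in glia and 23.2, 13.6, 17.7 and 38.3 in ganglia (1.62 ± 0.38 SE, adjusted p = 0.00859). Usp18, which removes Isg15 and restrains the type I receptor, was called higher with overlapping groups (1.19 ± 0.38 SE, adjusted p = 0.0327). Of the GTPases of the interferon gamma response, Gbp3 had 4.61, 8.01, 11.4 and 15.4 against 2.88, 3.28, 3.77 and 3.70 FPKM (1.2 ± 0.31 SE, adjusted p = 0.0122). Irgm1 was called as well (0.93), and Gbp2 (0.88) and Igtp (0.61) were not. Rtp4, a chaperone of receptors that interferon induces, had 23.7, 62.1, 84.7 and 47.7 against 17.2, 16.3, 16.4 and 19.4 (1.47 ± 0.34 SE, adjusted p = 0.00737). The partners Parp9 and Dtx3l, and Xaf1, were called with differences of 1.02, 0.72 and 1. Ifi27 (0.38) and Lgals3bp (0.13) were not called.

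Other genes of the pathway came from 3 further lists. Of 9 ligand, receptor and signalling genes tested, those called higher included the receptor chain Ifngr1 (0.70 ± 0.18 SE) and the kinase Jak2 (0.43 ± 0.13 SE). In the same list 2 were called lower, the kinase Jak1 (-1.24 ± 0.21 SE) and the receptor chain Ifngr2 (-1.17 ± 0.22 SE). Of 9 nucleic acid sensing genes, Tlr3 (1.49 ± 0.15 SE) and Zbp1 (1.58 ± 0.38 SE) were called higher. Of 43 further interferon-induced genes, 24 were called higher and 1, Lgals9, lower (-1.01 ± 0.32 SE). They included the GTPases Iigp1 (1.86 ± 0.26 SE), Tgtp1 (1.67 ± 0.44 SE) and Gbp7 (1.56 ± 0.14 SE). Uba7, which activates Isg15, had 81.3 to 107 FPKM in glia and was listed at 0 in every ganglion library. As for Irf7, a listed 0 can be a failed estimate. Uba7 was also listed at 0 in 2 of the 4 sham glial libraries at 3 days, with 90.1 and 126 FPKM in the others.

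Of the 24 members called higher, 17 were called under each of 13 alternative settings. Apobec3, Bst2, Dtx3l, Ifit3, Irgm1, Stat2 and Usp18 each missed the threshold under 2 or more of them. Glial library 3 was the highest of its group for 23 of 38 members (60.5%), beside 20.2% of all genes tested. Without it, 21 members were called higher. Its macrophage and endothelial marker sums were 12.6 and 157 FPKM, the highest and the next to lowest of the 4 libraries.

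**Figure D2:**
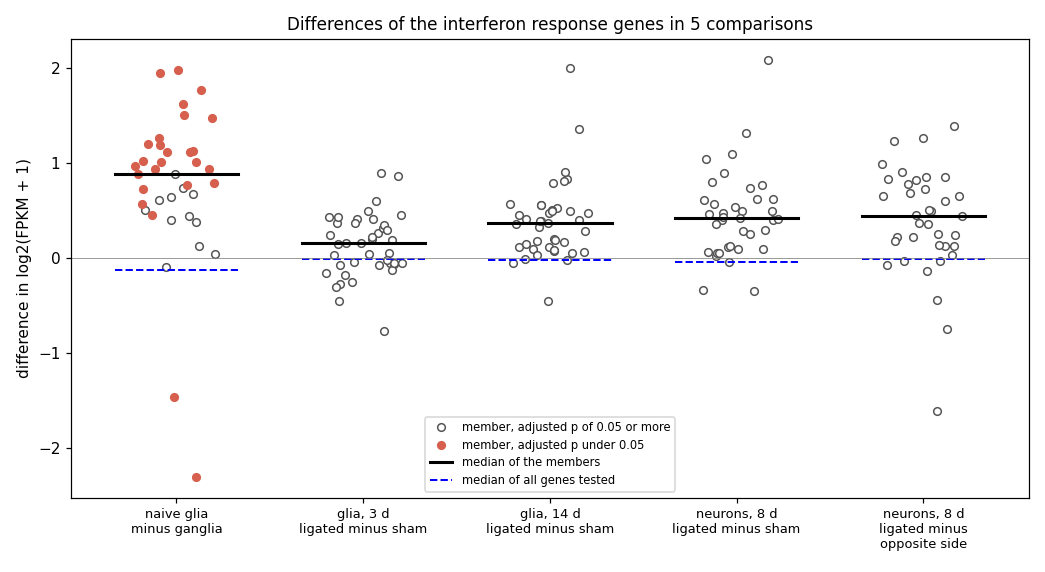
Points are the members' differences in log2(FPKM + 1) in 5 comparisons, red where the adjusted p was under 0.05; black lines are the members' medians and blue dashed lines the medians of all genes tested. Called members appear in the naive comparison alone, and the members' medians run from 0.15 (glia at 3 days) to 0.88 (naive).

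At 3 days after ligation no interferon response gene of satellite glia was called against sham. Of all 13924 genes tested 0.0646% were called (9 genes). An unadjusted limma p under 0.05 was found for 2 of 41 members (4.88%), Apobec3 and Ifnar2, and for 1269 of all genes (9.11%). The members' median difference was 0.15, with 25 of 41 positive (61.0%), and that of all genes was -0.01, with 48.6% positive. In the authors' deposited table of this comparison, none of the 41 members had an adjusted p under 0.05, beside 1.01% of all genes.

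Apobec3, a cytidine deaminase that restricts retroviruses, had the lowest unadjusted p of the members. Ligated libraries 1 to 4 had 11.2, 12.8, 11.4 and 14.9 FPKM and sham libraries 1 to 4 had 6.07, 10.6, 5.19 and 4.58 (0.89 ± 0.29 SE, limma adjusted p = 0.368). It was the only member whose ligated libraries were all above the sham libraries, beside 1.79% of all genes tested. Cbx7 lies on the other strand over part of this gene, and D730005E14Rik overlaps it on the same strand. The strand setting of the counting is not given in the sources used here, so reads of Cbx7 may be mixed in. Those of D730005E14Rik may be mixed in under any strand setting.

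Isg20 (0.86 ± 0.72 SE, adjusted p = 0.767), Gbp3 (-0.77 ± 0.56 SE, adjusted p = 0.723) and Dhx58 (0.60 ± 0.39 SE, adjusted p = 0.682) had differences of similar size, and their order depends on the scale: with a pseudocount of 0.1 Isg20 had 2.13 and Apobec3 0.99. Ifnar2, the signalling chain of the receptor, had 29.4, 30.9, 25.1 and 38.2 FPKM after ligation and 26.6, 19.9, 22 and 17.8 after sham (0.50 ± 0.20 SE, adjusted p = 0.487), where 1 ligated library lay within the sham range. Ifnar1 had a difference of -0.18 ± 0.31 SE. The factors Stat2, Irf9, Irf7, Irf3 and Irf1 had -0.26, 0.31, 0.37, 0.15 and 0.20, with adjusted p of 0.812 to 0.940. Isg15, Ifit1 and Ifit3 had 0.04, -0.05 and 0.03. None of the 9 signalling, 10 sensing and 49 further induced genes of the pathway lists was called, and the largest differences were Uba7 (2.13 ± 1.83 SE), Sp100 (1.08 ± 0.42 SE) and Parp11 (-0.96 ± 0.33 SE). Uba7 had 5.56, 85.7, 74.8 and 96.4 FPKM after ligation and 0, 90.1, 126 and 0 after sham. Its difference thus rests on 2 sham libraries listed at 0. In the authors' deposited table, 1 gene of the pathway lists had an adjusted p under 0.05, the chemokine Cxcl9, higher after ligation (log2 fold change 7.58, adjusted p = 0.0404). Cxcl9 was listed at 2.68, 0, 0.0275 and 0.419 FPKM after ligation and 0, 0.0155, 0 and 0 after sham, so the fold rests on values near 0 and mainly on ligated library 1. Endothelial markers summed to 309 to 558 FPKM after ligation and 207 to 399.6 after sham, with all 10 differences positive and none called, and their part was not tested.

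At 14 days after ligation no member was called either, while 37 of 41 differences were positive (90.2%, beside 47.8% of all genes). The called share of all genes was 0.00718% (1 gene of 13924). The members' median was 0.37, against -0.02 for all genes. An unadjusted limma p under 0.05 was found for 4 members (9.76%), Mx1, Apobec3, Gbp2 and Ifitm3, and for 5.16% of all genes. The 12 antiviral effectors, 4 membrane factors and 4 GTPases all had positive differences, with medians of 0.48, 0.48 and 0.52. Across the authors' deposited table, 1.05% of all genes had an adjusted p under 0.05, and 1 of the 41 members did, Apobec3 (log2 fold change 1.28, adjusted p = 0.000457). Fold changes in the authors' deposited table were positive for 39 of 41, with a median of 0.49.

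Apobec3 had 16.6, 11.5, 8.85 and 15 FPKM after ligation and 4.93, 2.62, 7.81 and 3.26 after sham (1.36 ± 0.29 SE, limma adjusted p = 0.370). Each ligated library was above each sham library, as at 3 days. Mx1, an antiviral GTPase whose C57BL/6 allele is known to make no working protein, had 7.69, 4.21, 8.68 and 2.84 against 0.934, 2.41, 0.0116 and 0 (1.99 ± 0.50 SE, adjusted p = 0.427), also without overlap. These were the only 2 of 41 members (4.88%) with every ligated library above every sham library, beside 1.69% of all genes tested. In the lower direction 0 members had groups without overlap. Of all 13924 genes, 236 were higher and 331 lower without overlap. The authors' deposited table gives Mx1 a log2 fold change of 2.82 with an adjusted p of 0.337.

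Ifitm3 had 2195, 1785, 3175 and 2098 FPKM after ligation and 1432, 2037, 1650 and 1340 after sham (0.50 ± 0.18 SE, adjusted p = 0.876). Ligated library 2 alone lay within the range of the sham libraries. Gbp2, a guanylate-binding GTPase, had 18.6, 9.93, 36.1 and 16.3 against 7, 14.1, 13.7 and 6.70 (0.83 ± 0.33 SE, adjusted p = 0.884). Ifit1 had 47.4, 16.3, 60.2 and 20.3 against 12.3, 33.9, 17.2 and 9.68 (0.90 ± 0.42 SE, adjusted p = 0.967), and its ligated libraries 1 and 3 were above all sham libraries. Ifitm1 had 6.90, 14.4, 3.30 and 0.217 against 0.977, 3.44, 5.80 and 0.138 (0.81 ± 0.75 SE, adjusted p = 1). Neutrophil markers summed to 181 FPKM in sham library 3, which had the highest sham value of Ifitm1, and to at most 4.08 in the ligated libraries.

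**Figure D3:**
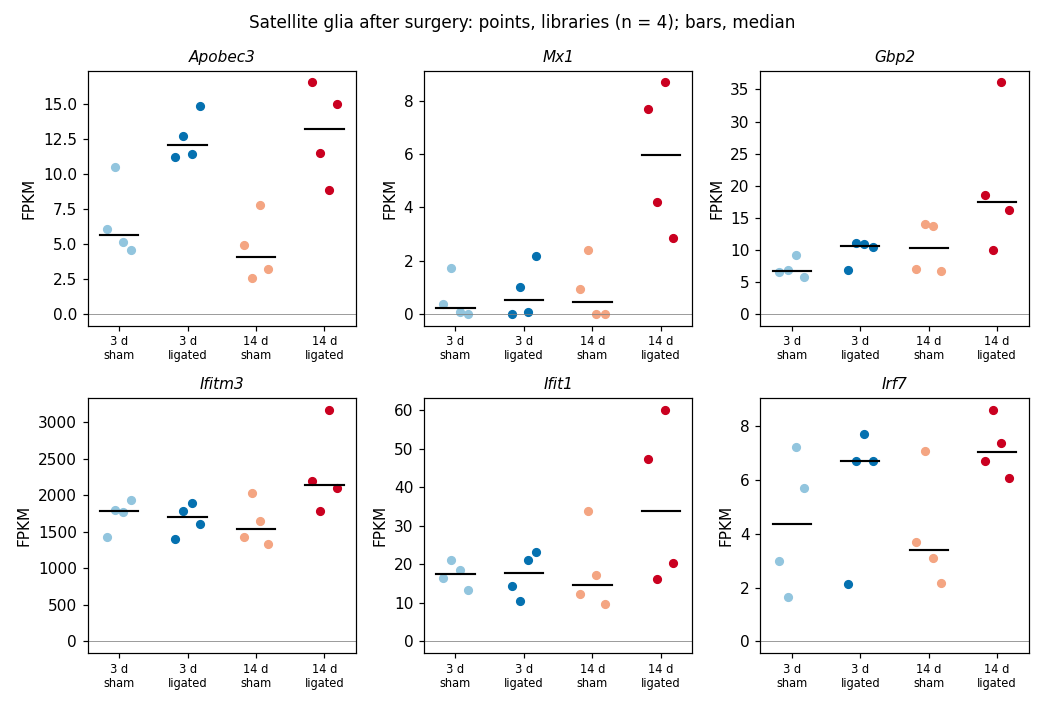
Points are the FPKM of single libraries of satellite glia (n = 4 per group) for 6 interferon response genes at 3 and 14 days, and bars are medians. Ligated Apobec3 lies above sham at both times and ligated Mx1 at 14 days, and the groups of Gbp2, Ifitm3, Ifit1 and Irf7 overlap.

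The receptor chains and most factors had small differences at 14 days. Ifnar1 had 0.20 ± 0.31 SE and Ifnar2 -0.01 ± 0.20 SE. Stat2 (0.08 ± 0.25 SE), Irf9 (0.05 ± 0.31 SE), Irf1 (0.11 ± 0.21 SE) and Irf3 (-0.46 ± 0.38 SE) likewise had limma adjusted p of 1. Irf7 had 6.70, 8.60, 7.35 and 6.05 FPKM after ligation and 3.68, 7.05, 3.10 and 2.15 after sham (0.79 ± 0.40 SE, adjusted p = 0.985). Its ligated libraries were all above 3 of the 4 sham libraries.

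Libraries of 1 group differed from each other across many members. Ligated library 3 at 14 days was the highest of its group for 25 of 41 members (61.0%) and library 4 for none, beside 21.5% and 20.7% of all genes. Sham library 2 was the highest of its group for 25, beside 31.2% of all genes. Usp18 had 18.9, 1.48, 30.2 and 14.1 FPKM in ligated libraries 1 to 4 and 7.95, 12.2, 14.2 and 6.70 in sham. Ddx58 had 12.7, 9.65, 81.4 and 22.5 against 12.4, 11.7, 21.1 and 56.6, and ran from 8.80 to 81.4 over all 16 libraries. Without ligated library 3 the members' median difference was 0.18, and leaving out each library in turn gave 0.18 to 0.47, with no member called.

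**Figure D4:**
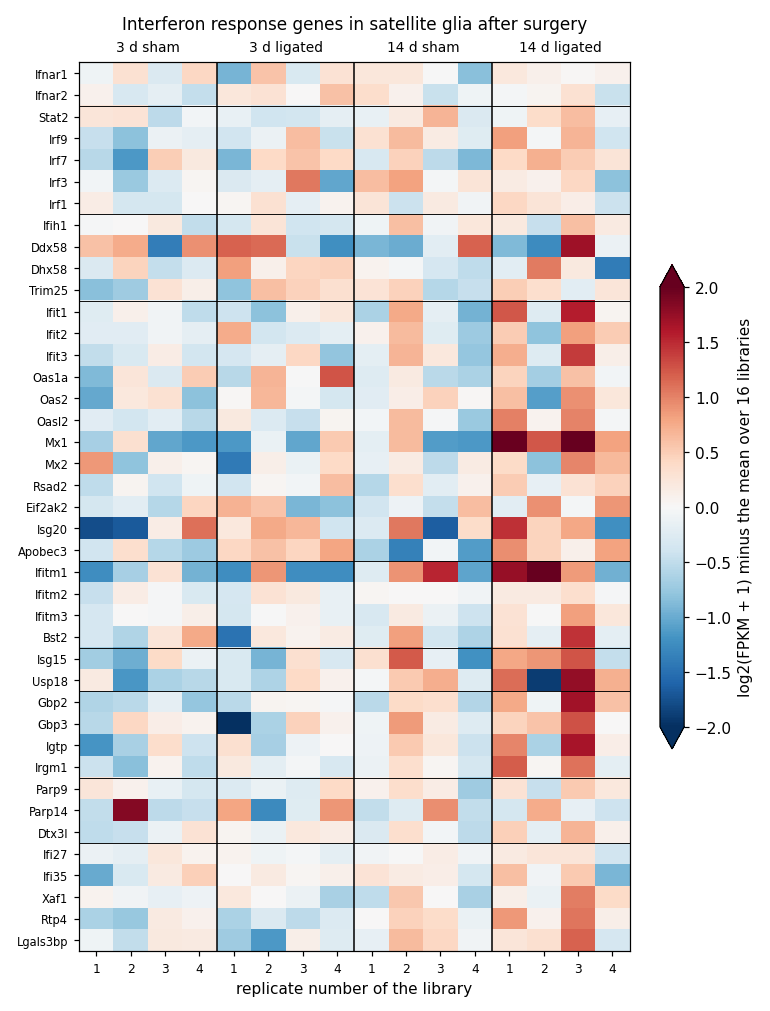
Rows are the 41 interferon response genes, columns the 16 libraries of satellite glia after surgery, and colour the library's log2(FPKM + 1) minus the gene's mean over the 16 libraries (red above, blue below, saturating at 2). Ligated library 3 at 14 days is red in most rows. At 3 days no library was the highest of its group in most rows. Sham library 3 came nearest, with 16 of 41 members (39.0%, beside 19.7% of all genes).

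Markers of other cells differed between the 14-day groups too. Macrophage markers summed to 43.7, 24.2, 47.9 and 19.8 FPKM in ligated libraries 1 to 4 and to 10.7, 12.3, 25.4 and 15.7 in sham, and 5 of 6 tested had a positive difference (median 1.09), none called. Ligated libraries 1 and 3 were the highest in these markers. Of the 41 members, 10 were highest in ligated library 1, 6 in library 2, 25 in library 3 and none in library 4, while Apobec3 was lowest in library 3. Endothelial markers summed to 256 to 440.5 FPKM after ligation and 187 to 357 after sham, with all 10 positive and none called. Neuron markers summed to 669, 612, 628 and 234 FPKM in ligated libraries 1 to 4 and to 319, 369, 422 and 195 in sham. Of 9 tested, 7 had a positive difference (median 0.23) and none was called. Satellite glia markers had 2 of 9 positive (median -0.17). The part of these cells in the member values was not tested.

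Of the other pathway genes at 14 days, limma called none of 9 signalling, 10 sensing and 49 further induced genes, and 41 of the 49 were positive (median 0.40). The largest differences were Zbp1 (1.74 ± 0.72 SE), Ifi47 (1.32 ± 0.43 SE) and Tgtp1 (0.97 ± 0.80 SE). In the authors' deposited table, 5 of these genes were higher after ligation with an adjusted p under 0.05: Zbp1 (log2 fold change 1.96), Ifi47 (1.57), Ifi203 (0.91), Ly6a (0.86) and Cxcl9 (7.88). Zbp1, a sensor of unusual nucleic acids, had 8.78, 18.9, 41.1 and 13.2 FPKM after ligation and 5.59, 5.04, 6.45 and 2.11 after sham, without overlap. Ifi203 had overlapping groups, with 90.95, 56.9, 15.5 and 10.7 FPKM after ligation and 40.7, 52.9, 37.4 and 7.64 after sham. The median FPKM of Ifi203 was 36.2 after ligation and 39.1 after sham, while the mean was 43.5 and 34.7. The direction in these values thus depends on the statistic. Cxcl9, which the authors' deposited table also has under 0.05 at 3 days, was listed at 0.800, 0, 1.12 and 2.05 FPKM after ligation and at 0 in all 4 sham libraries.

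The test of whether the ligation effect differed between 14 and 3 days called no member, beside 0.00718% of all genes. The difference of effects was positive for 30 of 41 (73.2%, median 0.19), beside 49.7% of all genes (median -0.002). Mx1 (1.81 ± 0.70 SE) and Ifitm3 (0.55 ± 0.26 SE) had an unadjusted limma p under 0.05 and an adjusted p of 1. Gbp3, Ifit1, Ifitm1 and Bst2 followed Mx1 by size, with 1.18, 0.95, 0.88 and 0.73. Apobec3 had 0.47 ± 0.42 SE.

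In isolated neurons 8 days after partial ligation, 34 of 37 members had a positive difference to sham, averaged over both sexes, and none was called. The positive share was 91.9% of the members and 43.1% of all genes tested. Of all 12145 genes tested 0.28% were called, all 34 of them higher. The members' median was 0.42, against -0.04 for all genes. An unadjusted limma p under 0.05 was found for 7 members (18.9%), Ifit1, Usp18, Ifi35, Rtp4, Ddx58, Dhx58 and Gbp3, and for 3.58% of all genes. In the authors' deposited table, 5 of the 40 members with an adjusted p were under 0.05, all higher after ligation, beside 1.7% of all genes. The authors' deposited table gives log2 fold changes of 1.04 for Usp18 (adjusted p = 0.00983), 0.90 for Ifit1 (0.00949), 0.81 for Irf7 (0.0144), 0.64 for Ddx58 (0.00949) and 0.50 for Ifi35 (0.0209).

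Library values of neurons are given in the order of the table's columns, which carry no replicate number. Ifit1 had 127, 99.2 and 39.9 FPKM in ligated males, 51.2, 125 and 50.1 in ligated females, 22.5, 40.6 and 75.7 in sham males and 17.6, 16.3 and 30.1 in sham females (1.31 ± 0.36 SE, limma adjusted p = 0.258). The female groups did not overlap, and the male groups did, with 3 libraries in each group. The share of all genes without overlap within 1 sex was not determined, so this only describes the values. The test between the sexes, given below, found no difference for any member. Usp18 had 58.7, 29.1 and 10.2 in ligated males, 17.4, 45.3 and 19.6 in ligated females, 0.289, 13.0 and 16.4 in sham males and 5.12, 3.66 and 5.76 in sham females (2.08 ± 0.67 SE, adjusted p = 0.606), again with overlap among males alone. Over both sexes no member had every ligated library above every sham library, beside 0.692% of all genes.

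Irf7 had 11.0, 15.3 and 6.76 FPKM in ligated males, 7.18, 17.6 and 5.14 in ligated females, 10.6, 6.65 and 3.08 in sham males and 3.35, 5.27 and 5.79 in sham females (0.73 ± 0.37 SE, adjusted p = 0.999). Ifi35, an interferon-induced leucine zipper protein, had 51.6, 39.3 and 44.4 in ligated males, 49.1, 69.0 and 54.4 in ligated females, 36.9, 35.1 and 39.4 in sham males and 30.4, 29.5 and 45.1 in sham females (0.49 ± 0.18 SE, adjusted p = 0.831). Ifi35 overlapped between groups only from 39.3 to 45.1 FPKM. Ddx58 had 6.88 to 14.2 FPKM after ligation and 4.19 to 9.47 after sham (0.62 ± 0.28 SE, adjusted p = 0.999).

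**Figure D5:**
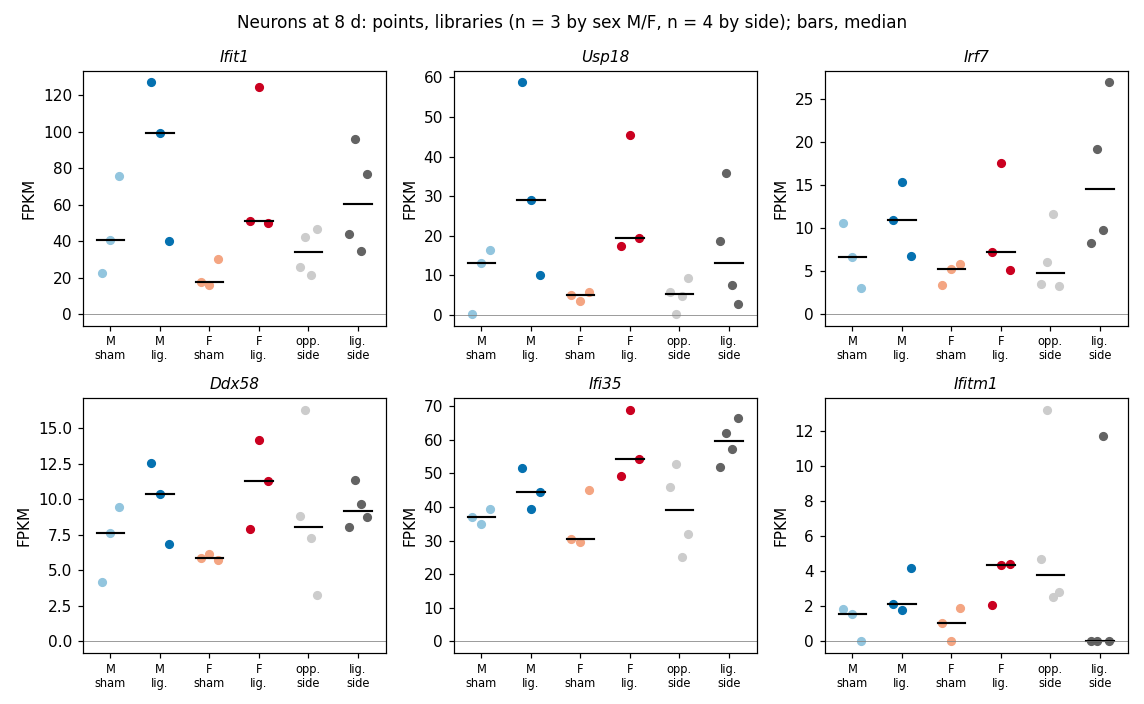
Points are the FPKM of single libraries of isolated neurons at 8 days (M males, F females, lig. ligated, opp. the side opposite the ligation), with bars at medians, for 6 interferon response genes. Ifit1 and Usp18 of ligated females lie above those of sham females, while the male groups of both genes overlap. Ifitm1 is listed at 0 in 3 of the 4 libraries of the ligated side.

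Ifitm1 (1.09 ± 0.56 SE), Rtp4 (1.04 ± 0.40 SE) and Gbp3 (0.89 ± 0.42 SE) completed the 5 largest differences, each with a limma adjusted p of 0.999. The 3 members with a negative value were Ifitm3 (-0.35 ± 0.73 SE), Ifnar1 (-0.33 ± 0.22 SE) and Irf3 (-0.04 ± 0.27 SE). Stat2, Irf9 and Irf1 had 0.12, 0.48 and 0.10. Of 10 signalling, 7 sensing and 34 further induced genes limma called none, and 27 of the 34 were positive (median 0.39). The largest were Ly6a (1.38 ± 0.66 SE), the adaptor Tmem173, known as STING (1.25 ± 0.59 SE), and the feedback inhibitor Socs3 (1.08 ± 0.43 SE). The authors' deposited table had 4 of these genes under an adjusted p of 0.05, all higher after ligation: Ddx60 (log2 fold change 0.97), Socs3 (0.89), Ifit1bl1 (0.88) and Cd274, which encodes PD-L1 (0.82). None of 7 endothelial markers in the table had a positive difference (median -0.53). Erythrocyte markers summed to 561 to 18890 FPKM after ligation and 354 to 15320 after sham, and all 5 had a positive difference (median 0.16). Neutrophil markers (3 of 6 in the table) summed to 0.889 to 9.13 and 0 to 9.96 FPKM, with 2 of 3 positive and 1, Ly6g, at an unadjusted limma p under 0.05. Of 12 macrophage markers 1 is in the neuron table. None of these markers was called, and their part in the member values was not tested. Satellite glia markers (3 of 9 in the table) summed to 38.1 to 72.3 FPKM after ligation and 40.3 to 69.3 after sham. Markers of myelinating Schwann cells (4 of 7 in the table) summed to 1009 to 2845 FPKM after ligation and 1095 to 2371 after sham. Of these, 2 had a positive difference (median -0.43), 2 had an unadjusted limma p under 0.05 and none was called. Their part in the member values was not tested either.

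The neuron libraries also moved together across members. Ligated male library 1 was the highest of its group for 21 of 37 members, ligated female library 2 for 26 and sham female library 3 for 24. The shares are 56.8%, 70.3% and 64.9%, beside 25%, 38.3% and 34.0% of all genes.

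For no member did limma find a difference of the ligation effect between the sexes, adjusted or unadjusted, while 0% of all 12145 genes were called and 130 had an unadjusted p under 0.05. Of 37 members, 30 had a larger effect estimate in females (81.1%, median 0.26), beside 57.9% of all genes (median 0.08). The 5 largest were Ifitm3 (1.72 ± 1.45 SE), Irgm1 (1.61 ± 1.12 SE), Isg15 (1.5 ± 0.96 SE), Ifit3 (1.29 ± 0.96 SE) and Apobec3 (-1.19 ± 1.16 SE), each with an adjusted p of 1. Each estimate lies within 2 SE of 0, so effects in either direction are within the error.

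Neurons of the ligated side against the opposite side gave 30 of 37 positive differences (81.1%, beside 48.7% of all genes). The members' median was 0.44, against -0.01 for all genes. None of the members was called, beside 0.667% of all genes. An unadjusted limma p under 0.05 was found for 6 members (16.2%) and 9.85% of all genes. These were Ifi35, Irf7, Oasl2, Igtp and Bst2 with positive differences and Ifitm1 with a negative one. No member had every library of the ligated side above every library of the opposite side, beside 2.68% of all genes.

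Irf7 had 8.23, 19.2, 9.81 and 26.9 FPKM on the ligated and 3.49, 6.01, 11.6 and 3.26 on the opposite side (1.26 ± 0.45 SE, limma adjusted p = 0.316). Oasl2, of the oligoadenylate synthetase family, had 69.0, 86.9, 35.2 and 72.4 against 26.8, 12.4, 43.6 and 61.8 (0.99 ± 0.39 SE, adjusted p = 0.371). Usp18 had 18.7, 35.9, 7.62 and 2.74 against 5.89, 0.221, 4.82 and 9.24 (1.39 ± 0.82 SE, adjusted p = 0.601). In these genes the highest library was on the ligated side and the lowest on the opposite side, with overlap between them. Ifi35 had 51.9, 61.9, 57.3 and 66.6 against 46.0, 52.8, 25 and 32.0 (0.65 ± 0.22 SE, adjusted p = 0.255), and 1 library of the opposite side reached the range of the ligated side.

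Ifitm1 was listed at 0, 0, 11.7 and 0 FPKM on the ligated side and 4.72, 13.2, 2.55 and 2.83 on the opposite side (-1.61 ± 0.68 SE, adjusted p = 0.427). Without the third ligated-side library the remaining values there are all 0, and the limma adjusted p was 0.0159. Apobec3, listed at 0 in 1 library of the ligated and 3 of the opposite side, had 2.45, 0, 1.86 and 9.21 against 0, 0, 0 and 2.35 FPKM (1.23 ± 0.71 SE, adjusted p = 0.586). Ifnar1, Stat2, Irf9, Irf3 and Irf1 had -0.03, 0.36, -0.75, 0.13 and 0.22. None of the 10 signalling, 7 sensing and 34 further induced genes was called, and the largest were Tmem173 (1.68 ± 0.72 SE), Ly6a (1.63 ± 0.81 SE) and Socs3 (1.51 ± 0.53 SE). Endothelial markers summed to 23.3 to 58.4 FPKM on the ligated and 54.8 to 126 on the opposite side, with 6 of 7 differences negative. Neutrophil markers differed in the other direction, with sums of 4.89, 5.09, 0.451 and 7.94 FPKM in the ligated-side libraries and 0 in all 4 of the opposite side. They had 2 of 3 positive, with Retnlg listed at 0 on both sides. The 1 fibroblast marker in the table had 24.9, 16.8, 26.1 and 14.7 against 13.9, 2.17, 10.5 and 12.8 FPKM (difference 1.18, unadjusted limma p under 0.05). Erythrocyte markers were all positive (5 of 5, median 0.51), with sums of 10780 to 24160 and 4088 to 18960 FPKM. None of these markers was called, and their part in the member values was not tested.

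Levels of some members differed widely between sorted glia and isolated neurons. Since the tables were scaled separately, the FPKM of each library were ranked over the 12170 genes that all tables list. Ifitm3 stood at percentiles 99.6 to 99.7 in the 4 sham glial libraries at 14 days and 1.57 to 78.0 in the 6 sham neuron libraries. Ifitm2 stood at 99.0 to 99.2 and 66.3 to 74.5, so both were among the top genes of the glia alone. Ifi27 was at 98.5 to 98.7 and 98.3 to 98.8, near the top in both. Stat2 (57.8 to 73.7 and 64.8 to 75.4), Oasl2 (75.7 to 88.5 and 79.0 to 87.3) and Ifit1 (65.6 to 86.3 and 63.6 to 88.1) had overlapping ranges. These ranks are a description, and the preparations also differed in fixation, sorting and RNA kit.

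Some values may mix genes. In the GENCODE M21 annotation of GRCm38, Parp9 overlaps Dtx3l, Igtp overlaps Irgm2, Irf9 overlaps Rnf31, Irf7 overlaps Phrf1 and Rtp4 overlaps Masp1. Apobec3 overlaps Cbx7 and D730005E14Rik. Members of the Ifit, Ifitm, Oas, Mx, Gbp and Irgm families have close relatives between which the counting could divide reads. In that annotation Apobec3 spans chr15:79891659-79915906, Mx1 chr16:97447035-97462907 and Ifit1 chr19:34640871-34650009.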

How the data were processed

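RNA was sequenced from sorted satellite glia, whole ganglia and isolated neurons. Tools named without versions in the submitters' processing notes are STAR, SAMtools, Cufflinks and DESeq2, and the genome build the authors name there is mm10. The authors deposited 3 FPKM tables, 1 of them with decimal commas that were read as points, and tables of their own comparisons with a log2 fold change and an adjusted p-value. Those were written as sham over ligated and are given here as ligated over sham. A further table that names no comparison and 6 group-mean columns of the neuron table were not used. FPKM are scaled for length and depth, so the depth and its precision are unknown.

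From the FPKM, log2(FPKM + 1) was tested with limma 3.58.1 (R 4.3.3, trended variance) in each table, over genes with at least 1 FPKM in 4 libraries (3 for neurons), with Benjamini-Hochberg adjustment over all genes tested. The procedure was tested on simulated data with independent noise for each gene and shifts larger than most member differences. Members moved together across libraries, so that run does not bear on the member results. Figures used matplotlib 3.10.9. Alternatives were a pseudocount of 0.1, no filter, quantile normalization, only the groups compared, array weights, a replicate block and leaving out each library. Named genes were the members called in each comparison, or the 5 with the largest differences where fewer than 3 were called, besides the receptor chains and factors; other genes of the pathway and cell markers came from fixed lists. The members and lists were chosen with earlier results of these data known. The values of 1 gene of the pathway lists are not reported here.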

Additional observations from a re-analysis of the deposited data

Results flagged for a closer look

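Dixon's test at the 95% level was applied to 123 groups of 4 libraries, and 11 had 1 library far from the other 3; chance alone flags about 1 in 20 groups. In naive satellite glia, 1 library stood high in Irgm1 (30.8 FPKM, the next at 11.9) and in Oasl2 (44.8, the next at 19.7), and 1 stood low in Parp9 (2.53, the next at 5.62). In naive whole ganglia, 1 library stood low in Apobec3 (1.80, the next at 3.11) and in Stat2 (5.87, the next at 6.19), and 1 stood high in Mx2 (1.63, the next at 0.895) and in Usp18 (3.60, the next at 2.63). In satellite glia at 3 days after ligation, 1 library stood low in Irf7 (2.12, the next at 6.70). In neurons of the opposite side, 1 library had 2.35 FPKM of Apobec3 with the others at 0, and 1 had 2.43 of Irf9 with the next at 17.9. In neurons of the ligated side, 1 library had 11.7 FPKM of Ifitm1 with the others at 0. Where the others are all at 0, the group is flagged whatever the remaining value is. The chance rate above therefore does not hold for these flags of Apobec3 and Ifitm1.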

How the results depend on the processing

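The limma count of members called higher in naive glia, 24, was 24 with a pseudocount of 0.1, 18 with no filter on low values, 29 with quantile normalization, 28 with array weights and 17 to 28 with each library left out. With the replicate block it was 22. In every other comparison no member was called higher under any of these settings, and none lower, except that leaving out each library in turn gave 0 to 1 called lower between the sides, Ifitm1 without the third ligated-side library (-2.53, limma adjusted p = 0.0159). The replicate block changed no other count of called members. Correlations of same-numbered deviations between groups ran from -0.08 to 0.19 and not every one was above 0.1, so the glial samples were not treated as paired. Naive replicates 3 and 4 and 14-day replicate 1 correlated best with their own number. Low correlations cannot show whether same-numbered libraries were prepared together. No paired analysis was possible because the columns of the neuron table carry no replicate numbers. Counts over all genes by limma also moved: 9 at 3 days became 14 with a pseudocount of 0.1, 1 with no filter, 4 with only the groups compared, 5 with array weights, 1 with the replicate block and 1 to 6 with a library left out; 1 at 14 days became 3 with only the groups compared and 10 with array weights. The 34 in neurons became 1 in males alone and 18 in females alone, and the 81 between the sides became 34 with only the groups compared.

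Several small differences of receptor chains and factors changed sign. With array weights Ifnar1 was 0.0037 at 3 days and 0.14 between the sides, and Irf3 -0.081 between the sides. With quantile normalization Ifnar2 was 0.0040 at 14 days, and Irf3 was 0.0023 in neurons and -0.051 between the sexes. In males alone Irf1 was -0.26, and in females alone Stat2 was -0.0025. With each library left out in turn, the ranges crossed 0. They were -0.15 to 0.28 for Irf3 in the naive comparison, and at 3 days -0.40 to 0.10 for Ifnar1 and -0.24 to 0.45 for Irf3. At 14 days they were -0.043 to 0.31 for Ifnar1, -0.15 to 0.13 for Ifnar2, -0.065 to 0.27 for Stat2, -0.14 to 0.27 for Irf9 and -0.026 to 0.29 for Irf1, and -0.22 to 0.091 for Irf1 between the times. In neurons they were -0.013 to 0.27 for Stat2, -0.18 to 0.086 for Irf3 and -0.018 to 0.18 for Irf1. Between the sexes they were -0.55 to 0.020 for Stat2, -0.13 to 0.49 for Irf9, -0.38 to 0.49 for Irf7 and -0.17 to 0.31 for Irf3. Between the sides they were -0.24 to 0.27 for Ifnar1, -1.37 to 0.22 for Irf9 and -0.097 to 0.39 for Irf3. The cause was not tested. Depth is unknown, and with 3 or 4 libraries a group the SEs above set what could be seen.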
